A study of Mus musculus with 3 samples.

Results

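The matrix metalloproteinases (MMP), the ADAMTS proteases and their tissue inhibitors (TIMP) were followed through single-cell RNA sequencing of mouse pituitary. Members were chosen by gene symbol alone, as symbols made of Mmp, Adamts or Timp and a number, with an optional letter after an Mmp number. The rule found 46 of 55293 symbols, namely 23 MMP, 19 ADAMTS and 4 TIMP genes. Of these, 30 had at least 50 counts over the 3 libraries and are described by cell cluster and genotype (14 MMP, 12 ADAMTS and 4 TIMP), and 16 had fewer. Whole pituitaries were freshly dissected from TpitWT, TpitHT and TpitKO mice, called WT, HT and KO here, with 1 library each. Tbx19 is the gene of Tpit, a transcription factor of the lineages that express Pomc. The labels do not spell out HT, and they give neither the construction of the allele, the age and strain of the mice, nor the number of mice pooled in a library. Trypsin freed the cells, propidium iodide marked dead ones for removal by sorting, and capture used 3′ chemistry.

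MMPs are zinc proteases that cleave collagens, laminins, elastin and other matrix proteins, and some of them are anchored in the plasma membrane. ADAMTS proteases are secreted and carry thrombospondin repeats. Some process procollagen, some cleave the proteoglycans aggrecan and versican, and Adamts13 encodes the protease that cleaves von Willebrand factor. TIMP proteins bind the active site of MMPs and block them, and Timp3, which stays bound to the matrix, also inhibits several ADAM and ADAMTS proteases. In the pituitary, the hormone cells lie in a network of basement membranes, capillaries, stromal cells and marginal-zone stem cells, all of which make or remodel matrix.

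The WT library held 11222 cells and 107289047 counts, the HT library 12839 cells and 152382545 counts, and the KO library 13413 cells and 133252735 counts. Between 36 and 40 barcode sequences were shared by any pair of libraries. Levels are given as CPM, the count of a gene divided by the total count of the same cells and multiplied by 1000000. Since each genotype had 1 library, no difference could be tested, and every interval is a 95% interval of counting error only, which leaves out variation between cells and between mice. The deposited clusters carry numbers from 0 to 20 and were named from marker lists. Tbx19 stood at 17.6, 12.4 and 0.69 CPM in WT, HT and KO, and Pomc at 21846, 22576 and 58.3 CPM. The corticotrope-like cluster 6 and the melanotrope-like cluster 7 held 1081 and 730 WT cells and no KO cell. Other cell types took larger shares of the KO library: endothelial-like cells were 1.84%, 2.19% and 4.12% of WT, HT and KO cells, gonadotrope-like cells 4.0%, 4.91% and 12.4%, and fibroblast-like cells 0.508%, 0.771% and 1.07%. Somatotrope-like cells lay mainly in clusters 1 and 2 in WT and HT and in clusters 1 and 5 in KO.

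**Figure D1:**
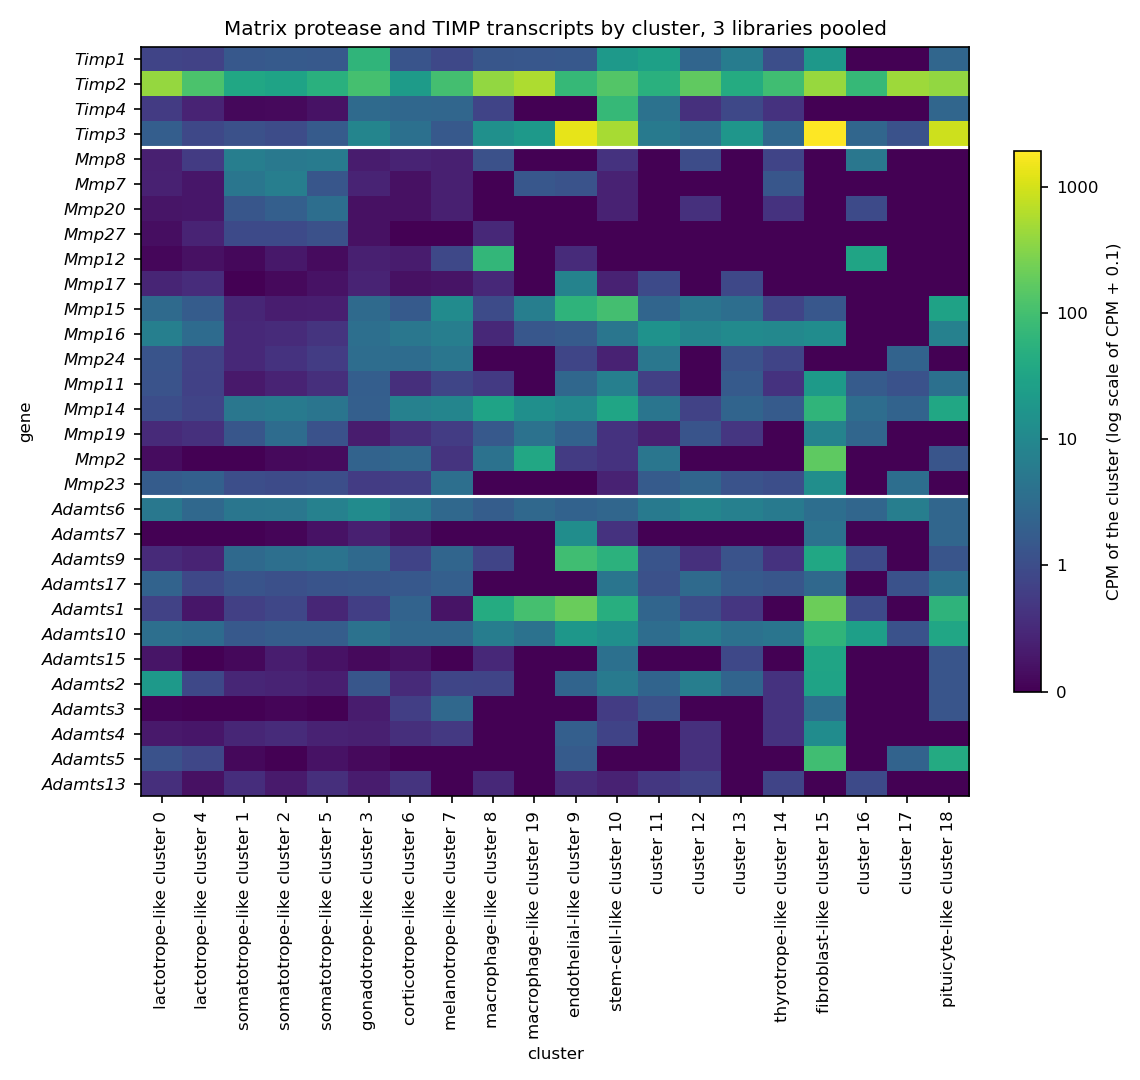
Level of each of the 30 described members (vertical axis, grouped as TIMP, MMP and ADAMTS) in each cluster of at least 50 cells (horizontal axis), with the 3 libraries pooled. Colour gives CPM on a log scale of CPM + 0.1, and the brightest field is Timp3 in fibroblast-like cluster 15, at 1901 CPM.

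Each of the 4 inhibitors had a cell distribution of its own. Timp3 was found in vessels, stroma and stem cells, Timp2 in nearly every cell type, Timp1 mainly in gonadotrope-like cells and Timp4 mainly in stem-cell-like cells. Counts of 3′ tags are not divided by transcript length, so levels are compared here between cells and libraries and not between genes.

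Timp3 stood at 1519, 2204 and 1836 CPM in WT, HT and KO fibroblast-like cells of cluster 15. In endothelial-like cluster 9 it stood at 1063, 1396 and 1337 CPM. Stem-cell-like cluster 10 had 505, 567 and 509 CPM. These were its first 3 clusters in WT and HT. In KO the third place went to pituicyte-like cluster 18, cells resembling the glia of the posterior lobe, where Timp3 stood at 967 CPM in 107 cells. That cluster held 9 WT and 2 HT cells, too few for a level. Timp3 was counted in 83.1%, 90.7% and 90.2% of endothelial-like cells of WT, HT and KO, against 0.612%, 0.816% and 0.842% of somatotrope-like cells of cluster 1. The somatotrope-like cells were the more deeply counted, with 8466 counts per cell against 3610 in WT.

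Timp2, an inhibitor that also takes part in the activation of pro-MMP2 at the cell surface, was counted in 48.7%, 54.4% and 53.2% of all WT, HT and KO cells. In lactotrope-like cluster 0 it stood at 418, 427 and 358 CPM, and this cluster alone gave 72.3%, 75.8% and 52.5% of all Timp2 counts in the libraries. Lactotrope-like cluster 4 had less, at 118, 154 and 101 CPM. The macrophage-like cluster 8 had 299, 372 and 438 CPM, a KO level 1.47 times that of WT (1.29 to 1.67). Among clusters of at least 50 cells, fibroblast-like cells of HT, at 485 CPM, had its highest level in that library. With the libraries pooled, Timp2 was highest in a second, small macrophage-like cluster, 19, at 565 CPM (512 to 621) in 115 cells. Timp2 thus differed in opposite directions in lactotrope-like and macrophage-like cells, by less than 2-fold in each. In the WT endothelial-like cluster 9, where its share of positive cells was lowest, 12.1% of cells still had a Timp2 count.

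Timp1 was counted in 38.1%, 48.7% and 35.5% of the gonadotrope-like cells of cluster 3 in WT, HT and KO. The share in the KO endothelial-like cells was 0.543%, at 4250 counts per cell against 12862 in the KO gonadotrope-like cells. The gonadotrope-like level in WT, HT and KO was 79.3 CPM (71.7 to 87.5), 75.5 CPM and 53.7 CPM (50.6 to 56.9), so the WT and KO counting intervals lay apart. This cluster gave 71.8%, 78.7% and 75.4% of all Timp1 counts. Cluster 11, which met no marker list and was led by Klk1, Cdkn1c and Rrad, had 30.6 CPM in WT from 10 counts and 29.2 CPM in KO, and its cells numbered 53 in WT and 871 in KO.

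Timp4 stood at 43.3 CPM (33.3 to 55.3), 53.3 CPM (44.5 to 63.4) and 113 CPM (99.6 to 127) in WT, HT and KO stem-cell-like cells. WT and HT overlapped within counting error and KO lay above both. The share of stem-cell-like cells with a Timp4 count was 11%, 12.6% and 23.4%, at 5600, 6709 and 5867 counts per cell. In somatotrope-like cluster 1, Timp4 was counted in 0.0612% of the 1635 WT cells.

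Timp1, Timp3 and Timp4 each lie on the opposite strand within a synapsin gene, Timp1 in Syn1 on chromosome X, Timp3 in Syn3 on chromosome 10 and Timp4 in Syn2 on chromosome 6. Whether counting used the strand is not given in the sources used here. The strand column of the table lists LacZ once on each strand, with 262 and 8 counts. Syn1 stood at 18.8, 17.5 and 18.6 CPM in WT, HT and KO, and Syn2 at 12.3, 12.1 and 11.1 CPM, values that hardly differed between libraries. Syn3 stood at 2.15, 2.01 and 4.01 CPM, higher in KO as Timp3 was, and its part in the Timp3 values was not tested. Timp2 shares its strand with Cep295nl, which had 943 counts against 65966 of Timp2.

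The MMP genes fell into a somatotrope group on chromosome 9, a macrophage gene beside it, and others that differed among themselves in where they were highest, from fibroblast-like, endothelial-like and stem-cell-like cells to hormone cells. On GRCm38, 10 Mmp genes lie side by side within 427072 bases of chromosome 9, in the order Mmp13, Mmp12, Mmp1b, Mmp3, Mmp1a, Mmp10, Mmp8, Mmp27, Mmp20 and Mmp7. The last 4, which are direct neighbours on the plus strand, were somatotrope genes in these data. Somatotrope-like clusters 1, 2 and 5 held 93.3% of the Mmp8 counts, 89.6% of the Mmp27 counts, 93.5% of the Mmp20 counts and 94.4% of the Mmp7 counts. The same clusters held 30.0% of all cells and 35.7% of all counts. At the other end of the group, Mmp12 had 2.05% of its counts there, and 82.1% in macrophage-like cluster 8. The remaining 5 genes had 1 to 23 counts each. Mmp8 encodes neutrophil collagenase, Mmp20 the enamel protease enamelysin, and Mmp7 matrilysin, a small MMP without the hemopexin domain.

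**Figure D2:**
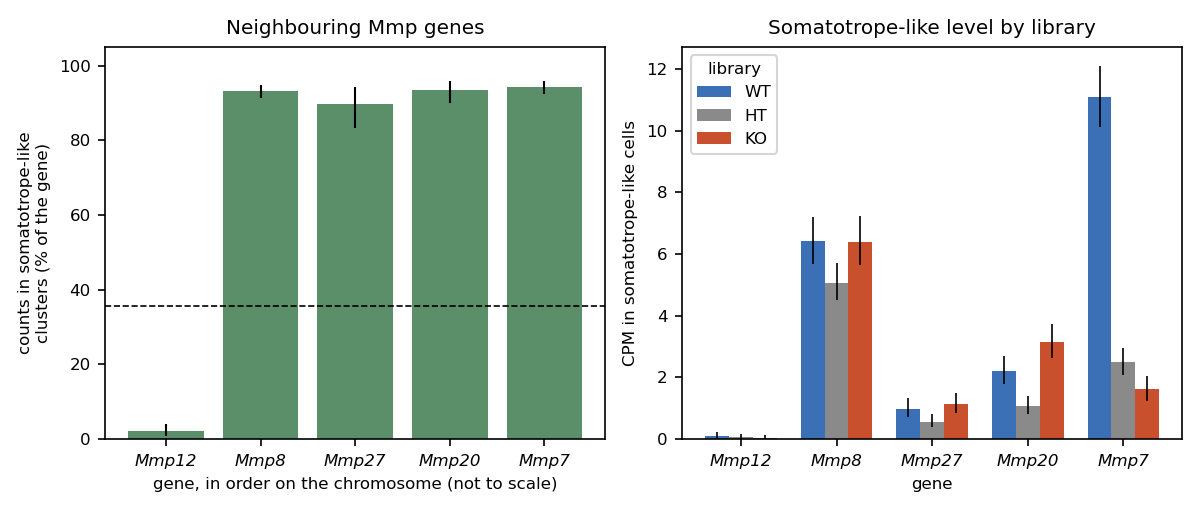
Left, the share of each gene's counts, in percent, that lay in somatotrope-like clusters for the 5 members of the chromosome 9 group with at least 50 counts, in chromosomal order and not to scale; bars on the columns are exact binomial 95% intervals and the dashed line is the share of all counts, 35.7%. Right, their CPM in somatotrope-like cells of each library with exact Poisson 95% intervals, where Mmp7 stands at 11.1, 2.49 and 1.61 CPM in WT, HT and KO while Mmp8 stands at 6.41, 5.08 and 6.4 CPM.

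Upstream sequence of the 4 somatotrope genes is shown because they are neighbours with a shared cell type, and that of Mmp12 because it is the neighbour found in macrophages. The windows are RefSeq's on GRCm38.p6 and run from 250 bases before to 50 bases after the annotated start, 5′ to 3′. Capitals mark matches, on either strand, to 3 motifs: the AP-1-like letters TGANTCA, the TATA box TATAAA and a Pit1 site TATNCAT. N stands for any base, so the first pattern is looser than an AP-1 site. AP-1 is a dimer of Fos and Jun proteins, and Pit1, encoded by Pou1f1, is the factor of the somatotrope, lactotrope and thyrotrope lineages.
Mmp8, chr9:7558179-7558478, plus strand: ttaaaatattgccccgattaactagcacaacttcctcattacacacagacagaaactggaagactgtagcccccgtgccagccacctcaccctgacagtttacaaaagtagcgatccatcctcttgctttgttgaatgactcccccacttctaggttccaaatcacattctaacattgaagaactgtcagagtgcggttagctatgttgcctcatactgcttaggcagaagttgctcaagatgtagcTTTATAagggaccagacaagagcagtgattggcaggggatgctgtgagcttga
Mmp27, chr9:7571146-7571445, plus strand: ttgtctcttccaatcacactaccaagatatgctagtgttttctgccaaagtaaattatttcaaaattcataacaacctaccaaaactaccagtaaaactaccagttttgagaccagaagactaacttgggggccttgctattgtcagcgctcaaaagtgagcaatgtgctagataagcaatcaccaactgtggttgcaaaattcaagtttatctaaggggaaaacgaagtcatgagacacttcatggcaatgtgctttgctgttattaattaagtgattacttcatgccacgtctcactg
Mmp20, chr9:7627981-7628280, plus strand: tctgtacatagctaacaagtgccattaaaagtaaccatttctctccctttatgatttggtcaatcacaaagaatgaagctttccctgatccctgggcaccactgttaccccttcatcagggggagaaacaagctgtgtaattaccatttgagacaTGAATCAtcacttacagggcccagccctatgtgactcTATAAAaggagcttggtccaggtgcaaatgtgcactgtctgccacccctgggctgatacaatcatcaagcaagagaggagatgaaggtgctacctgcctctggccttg
Mmp7, chr9:7691840-7692139, plus strand: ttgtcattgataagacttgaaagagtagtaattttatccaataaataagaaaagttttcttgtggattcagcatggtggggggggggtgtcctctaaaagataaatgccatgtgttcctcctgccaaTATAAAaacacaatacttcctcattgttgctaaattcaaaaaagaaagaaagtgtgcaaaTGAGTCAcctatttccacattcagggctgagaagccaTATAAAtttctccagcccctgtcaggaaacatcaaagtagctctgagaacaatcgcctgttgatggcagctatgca
Mmp12, chr9:7344147-7344446, plus strand: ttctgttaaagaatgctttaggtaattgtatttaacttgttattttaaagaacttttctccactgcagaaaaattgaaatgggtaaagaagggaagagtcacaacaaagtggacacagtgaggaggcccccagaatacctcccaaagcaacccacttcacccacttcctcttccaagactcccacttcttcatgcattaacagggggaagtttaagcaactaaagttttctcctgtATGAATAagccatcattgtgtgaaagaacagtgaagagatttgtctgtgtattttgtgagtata

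Mmp20 and Mmp7 held a match to the AP-1-like letters, TGAATCA at position -95 and TGAGTCA at -63 from the start. Such a match was found in 7 of the 32 members with a RefSeq window, against 7.81% of all 32851 windows of this length. Of those 7, all lie in the chromosome 9 group, and the other 5 (Mmp10, Mmp13, Mmp1a, Mmp1b and Mmp3) had 1 to 23 counts here. The Pit1 letters were found in Mmp12, Mmp13 and Mmp1a and in 8.84% of all windows, and in none of the 4 somatotrope genes. TATA letters were found in 10 of the 32 members, Mmp8, Mmp20 and Mmp7 among them, and in 13.6% of all windows. A match describes the letters and is not evidence of a bound site, and its absence says only that the letters are not in this window.

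Among the described members, Mmp7 had the largest ratio between WT and KO over all cells. In somatotrope-like cells of WT, HT and KO its levels were 11.1 CPM (10.1 to 12.1), 2.49 CPM (2.09 to 2.95) and 1.61 CPM (1.25 to 2.05). HT and KO were both low and their intervals lay apart from WT. Within cluster 1, which had cells of every library, it stood at 9.82, 2.23 and 2.36 CPM, and was counted in 4.59%, 1.57% and 1.01% of cells. The share in lactotrope-like cluster 0, at a like depth of 9013 counts per cell in WT, was 0.271%, 0.113% and 0.0317%. Its neighbours had a lower CPM in HT than in WT as well, but they did not share the low KO level. In somatotrope-like cells of WT, HT and KO, Mmp20 stood at 2.20, 1.07 and 3.15 CPM. Mmp27 stood at 0.98, 0.56 and 1.13 CPM there from 43, 31 and 47 counts, and Mmp8 at 6.41, 5.08 and 6.4 CPM. Counts per cell, with each cluster at its WT share of cells, gave a smaller difference for Mmp8. On that measure HT over WT was 0.987 for Mmp8, 0.658 for Mmp20 and 0.683 for Mmp27. Both Mmp20 and Mmp7 overlap AV064505, a gene on the opposite strand, which stood at 0.11, 0.14 and 0.08 CPM. Without strand, their reads cannot be told apart from its own.

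Mmp12, the macrophage elastase, stood in macrophage-like cluster 8 of WT at 101 CPM (82.8 to 121), of HT at 79.6 CPM (66.5 to 94.5) and of KO at 40.8 CPM (32.3 to 50.8). The share of macrophage-like cells with a count was 10.7%, 11.1% and 5.76%, so KO was the low library on both measures. In somatotrope-like cluster 1, 1 of the 1635 WT cells had a count, at 8466 counts per cell against 3630. The summed level of the 8 macrophage markers was 23012, 23965 and 23899 CPM in that cluster, close to equal in the 3 libraries. Somatotrope markers in the same cells summed to 58996, 34553 and 14168 CPM, lowest in KO, and their part in the values of this cluster was not tested. The highest level of Mmp12 in KO was in cluster 16, at 45.9 CPM from 35 counts, within the counting interval of KO cluster 8. Cluster 16 was led by immunoglobulin genes. With the libraries pooled, 6 of 7 lymphocyte markers and 5 of 8 macrophage markers were at least 2-fold higher there than in all other cells.

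Among the membrane-anchored MMPs, Mmp14, an activator of pro-MMP2, was highest in fibroblast-like cells in every library, at 59.1, 41.4 and 81.9 CPM. In macrophage-like cluster 8 it stood at 19.7 (12.4 to 29.9), 24.5 (17.5 to 33.4) and 40.8 CPM (32.3 to 50.8), the reverse of the Mmp12 order. Mmp15 marked stem-cell-like cells, at 110, 99.9 and 95.7 CPM in WT, HT and KO, with 37.5%, 39.9% and 35.4% of cells positive and overlapping intervals of CPM. In somatotrope-like cluster 1, which was deeper, the shares were 0.122%, 0.0583% and 0.253%. Endothelial-like cells came next for Mmp15, at 46.8, 62.3 and 65.2 CPM. Mmp16 gave 51.1% of its counts from lactotrope-like cluster 0, at 7.65, 6.4 and 7.0 CPM, where the 3 libraries overlapped. Its highest level was in fibroblast-like cells in WT and HT, at 27.8 and 11.8 CPM from 8 and 6 counts, and in cluster 11 in KO, at 16.7 CPM from 106 counts. Mmp24 was highest in melanotrope-like cells in WT and HT, at 4.90 and 4.41 CPM, and in cluster 11 in KO, at 5.53 CPM. Mmp23 was highest in fibroblast-like cells in every library, at 13.9, 15.8 and 10.2 CPM from 4, 8 and 7 counts, and Mmp17 in endothelial-like cells, at 2.68, 9.83 and 8.95 CPM from 2, 12 and 21 counts.

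Of the other secreted MMPs, Mmp2, the gelatinase that cleaves type IV collagen, stood at 111 CPM (76.1 to 157), 152 CPM (120 to 190) and 200 CPM (168 to 237) in fibroblast-like cells of WT, HT and KO. WT and KO did not overlap, and HT overlapped both. Mmp11 was highest in the same cells, at 10.4, 13.8 and 32.2 CPM from 3, 7 and 22 counts. Mmp19 differed from these: 53.4% of its counts came from somatotrope-like cluster 2, at 3.52 and 2.92 CPM in WT and HT. Its highest levels rested on 5 or 6 counts each, in endothelial-like cells in WT and in fibroblast-like cells in HT and KO. Cluster 2 held 2081 WT, 2092 HT and 17 KO cells. Mmp19 stood at 1.16, 1.52 and 1.13 CPM in cluster 1, where the libraries overlapped.

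By level, 7 of the 12 described ADAMTS genes (Adamts1, Adamts4, Adamts5, Adamts7, Adamts9, Adamts10 and Adamts15) were highest in fibroblast-like or endothelial-like cells in every library. By counts, the far larger lactotrope-like cluster 0 was the main source of 5 (Adamts2, Adamts6, Adamts10, Adamts13 and Adamts17), and melanotrope-like cells were that of Adamts3. Cluster 0 gave 28.0% of the Adamts10 counts. Adamts1, a versican-cleaving protease, stood at 214, 218 and 182 CPM in endothelial-like cells and at 142, 227 and 217 CPM in fibroblast-like cells of WT, HT and KO. Adamts9, which cleaves versican as well, was highest in endothelial-like cells, at 61.6 CPM (45.1 to 82.1), 93.4 CPM (77.1 to 112) and 101 CPM (89.0 to 115). WT lay below KO there, while in stem-cell-like cells Adamts9 stood at 55.5, 53.3 and 58.7 CPM and did not differ beyond counting error. In the endothelial-like cells, endothelial markers summed to 7442, 9373 and 8097 CPM and somatotrope markers to 94650, 39673 and 26957 CPM. Their part in the Adamts9 values was not tested. Adamts5, the main aggrecan-cleaving enzyme of mouse cartilage, was highest in fibroblast-like cells, at 79.9, 82.9 and 107 CPM with overlapping intervals. Adamts10 stood at 31.3, 59.2 and 77.5 CPM in these cells, Adamts15 at 38.2, 39.5 and 23.4 CPM and Adamts4 at 10.4, 19.7 and 7.31 CPM. Each was highest there in every library, and Adamts7 in endothelial-like cells, which gave 73.6% of its 72 counts, at 8.03, 13.9 and 12.8 CPM. Adamts3, a procollagen protease, had 54.2% of its counts in melanotrope-like cells, at 2.13 and 3.1 CPM in WT and HT. In KO it was highest in fibroblast-like cells, at 5.85 CPM from 4 counts. Adamts6 was broad, with 15.3, 11.6 and 10.8 CPM in gonadotrope-like cells, its first cluster in HT and KO, and 15.5 CPM in cluster 12, its first in WT. Adamts13 had 81 counts, 38.3% of them in lactotrope-like cluster 0, and Adamts17 had 41.2% of its 585 counts there. The highest levels of both rested on 1 to 10 counts and fell in a different cluster in each library.

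Adamts2, which removes the amino-terminal propeptide of fibrillar procollagens, gave 89.5% of its counts from lactotrope-like cluster 0. Its levels there in WT, HT and KO were 24.2 CPM (22.5 to 26.0), 20.5 CPM (19.3 to 21.8) and 13 CPM (11.7 to 14.4), and was counted in 16%, 15.7% and 8.62% of cells. The 3 intervals lay apart in the order WT, HT, KO. In somatotrope-like cluster 1, 0.0612% of WT cells had a count. Fibroblast-like cells, a small cluster, had a higher level in WT and KO, at 38.2 and 33.6 CPM from 11 and 23 counts.

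Of the 30 described members, 16 had the same cluster of highest level in all 3 libraries. Fibroblast-like cluster 15 led for 11, 14 and 13 members in WT, HT and KO, although it held 57, 99 and 144 cells.

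Summed over all cells, Timp3, Timp1, Timp4, Mmp2, Adamts5 and Adamts13 were at least 2-fold higher in KO than in WT, and Mmp7, Mmp19 and Adamts2 at least 2-fold lower. Timp3 stood at 21.2, 29.8 and 50.2 CPM in WT, HT and KO, Timp1 at 5.18, 6.27 and 11.4 CPM, and Timp4 at 1.15, 1.54 and 2.99 CPM. For these 3 inhibitors HT lay between WT and KO. Timp2 differed from them, at 161, 187 and 151 CPM, with KO the lowest of the 3.

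**Figure D3:**
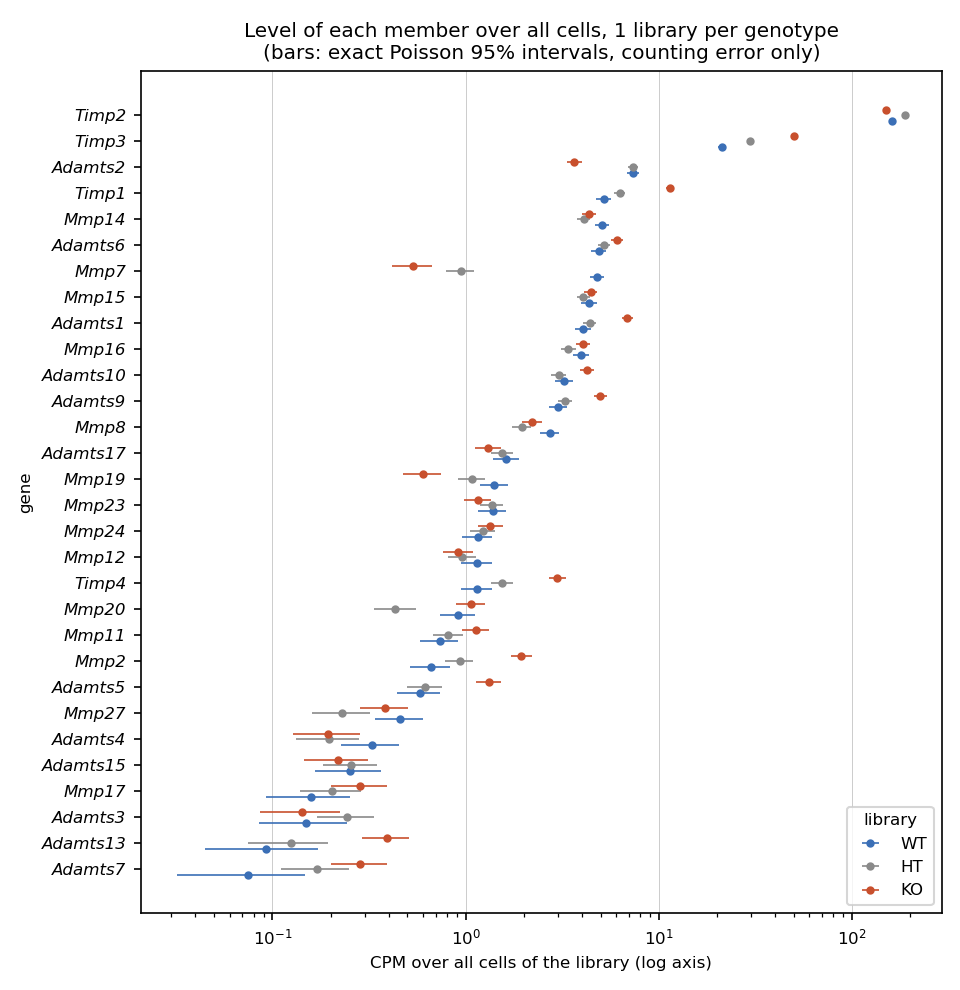
CPM of each described member over all cells of the library (horizontal log axis), by gene (vertical axis, ordered by the WT level), in WT, HT and KO; bars are exact Poisson 95% intervals of 1 library each. Timp3, Timp1, Timp4 and Mmp2 lie to the right in KO, and Mmp7 lies far to the left in HT and KO.

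The rule was a ratio of CPM of at least 2 or at most 0.5, for genes whose counts in the pair of libraries added up to 50 or more. Against WT, 6 of the 28 members with enough counts were higher in KO (21.4%), beside a background of 5.79% of all 21791 genes with enough counts. The 3 lower members were 10.7%, beside a background of 2.55%. Both shares exceeded the background, and the median log2 ratio of the 28 members was 0.12, against 0.07 over all genes. Timp3 was 2.37-fold higher in KO (2.26 to 2.49), Timp1 2.20-fold (2.00 to 2.43), Timp4 2.61-fold (2.12 to 3.22) and Mmp2 2.94-fold (2.25 to 3.88). Adamts5 was 2.29-fold higher (1.70 to 3.1). Adamts13 rested on 10 WT and 52 KO counts, and its interval was wide, 2.10 to 9.24. On the other side, Mmp7 was 8.99-fold higher in WT than in KO (7.0 to 11.7), from 514 and 71 counts. Mmp19 was 2.34-fold higher in WT (1.78 to 3.11). Adamts2 was 2.02-fold higher in WT (1.80 to 2.26), at the edge of the rule. The authors' scaled counts multiply each column of genotype and cluster by its own factor, so clusters can weigh differently in a sum over all cells. With these scaled counts the KO over WT ratio was 0.983 for Adamts5 and 1.31 for Mmp19. The direction of both thus depended on the scaling.

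In HT, no member of 27 was 2-fold above WT (background 0.675%), and 2 were lower (background 1.11%), Mmp7 and Mmp20. Mmp7 had 514 counts in WT and 144 in HT, at 4.79 and 0.94 CPM. Mmp20 stood at 0.91, 0.43 and 1.07 CPM in WT, HT and KO, so HT alone was low. Between KO and HT, 4 of 30 members were higher in KO (background 4.92%), Adamts13, Adamts5, Mmp2 and Mmp20, and 1 was lower (background 1.86%), Adamts2. The comparisons share libraries, KO in one pair and WT in another, so they are not independent of each other.

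As families, the summed MMP level was 29.3, 22.0 and 24.9 CPM in WT, HT and KO, with KO at 0.85 of WT (0.81 to 0.89). Mmp7 made up that difference: without it the sums were 24.5, 21.1 and 24.4 CPM and the ratio was 0.99 (0.94 to 1.05). The TIMP sum was 189, 225 and 215 CPM, a ratio of 1.14 (1.12 to 1.16). Without Timp2 it was 27.5, 37.6 and 64.6 CPM and the ratio was 2.35 (2.25 to 2.45). The ADAMTS sum was 26.3, 26.7 and 30.1 CPM, a ratio of 1.15 (1.09 to 1.20). With the scaled counts the MMP ratio was 1.07 and the ADAMTS ratio 0.927, and with WT shares of cells by class the TIMP ratio was 0.948, so the direction of each sum depended on the setting.

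Whether these differences were differences in level within a cell type or in the number of cells of a type was addressed by giving each cell class its WT share of cells in both libraries, over the classes with at least 20 cells in each. Counts per cell were then compared. The ratios before this step used all cells. The step left out corticotrope-like and melanotrope-like cells, absent in KO, and pituicyte-like cells, which numbered 9 in WT. Clusters 6 and 7 gave 15.4% and 13.8% of the WT Timp4 counts, and cluster 18 gave 10.6% of the KO Timp3 counts. The part of these left-out cells in the changes was not tested. Over the remaining classes, Timp3 and Timp1 lost most of their excess in KO, while Timp4 and Adamts13 kept theirs. Timp3 went from 2.47-fold to 1.20-fold, and Timp1 from 2.29-fold to 0.86-fold, below WT. Timp4 went from 2.71-fold to 2.49-fold. Mmp2 went from 3.05-fold to 1.82-fold and Adamts5 from 2.38-fold to 1.54-fold. The lower members held their place: Mmp7 had a ratio of 0.116 before and 0.138 after, Mmp19 of 0.443 and 0.445, and Adamts2 of 0.515 and 0.474. Under the rule of 2-fold, 2 members remained higher, Adamts13 and Timp4. The share of all genes that remained higher is not given here, so this count has no background beside it. When single clusters rather than classes carried the weights, Mmp19 moved to 0.778 and Adamts2 to 0.569. The KO library has 17 cells in cluster 2, the main Mmp19 cluster of WT, which is left out when clusters are weighted.

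**Figure D4:**
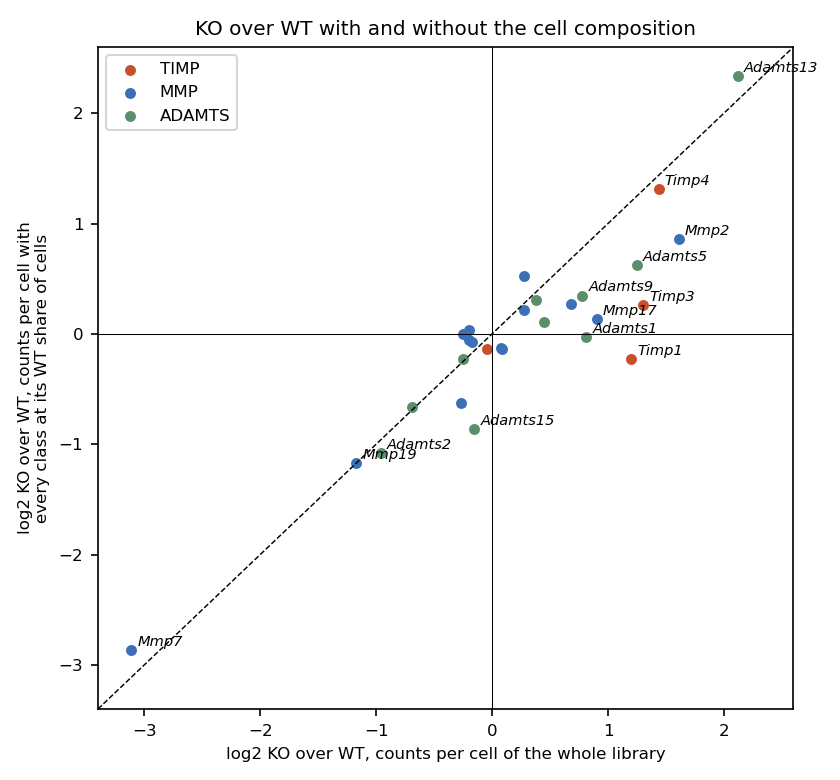
Each point is a member whose WT and KO counts add up to 50 or more. The horizontal axis gives the log2 ratio of counts per cell, KO over WT, in the whole libraries. The vertical axis gives this ratio over the classes with at least 20 cells in each library, with each class at its WT share. The dashed line marks equal values. Timp1, at 1.20 and -0.22, and Timp3, at 1.30 and 0.26, lie far below the line, and Timp4, at 1.44 and 1.32, lies near it.

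For Timp3, the endothelial-like cells gave 35.0% of its counts in WT and 46.8% in KO, the pituicyte-like cells 0.97% and 10.6%, and the stem-cell-like cells 32.9% and 18.5%. The cells of endothelial-like cluster 9 numbered 207 in WT and 552 in KO. For Timp1, the gonadotrope-like cells numbered 449 in WT and 1662 in KO, while the level in those cells was lower in KO. Timp4 had the least of this: 264 WT and 415 KO stem-cell-like cells, with more counts per cell in KO.

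Within single clusters, the clearest differences were a higher Timp4 in KO stem-cell-like cells, a higher Mmp14 and a lower Mmp12 in KO macrophage-like cells, a lower Timp3 in KO gonadotrope-like cells and a lower Mmp7 in KO somatotrope-like cells. KO and WT were compared in the 7 clusters with at least 100 cells in both libraries (0, 1, 3, 4, 8, 9 and 10), for pairs of member and cluster whose WT and KO counts added up to 20 or more. Of 80 such pairs, 8 were at least 2-fold higher in KO, or 10.0%, beside a background of 4.71% of all gene and cluster pairs. The 6 lower pairs were 7.50%, beside a background of 3.72%. The median log2 ratio over the 80 pairs was 0.13, against 0.03 over all pairs. KO and HT shared 9 clusters of that size, cluster 11 among them, and there 16 of 97 pairs were higher in KO (background 5.34%) and 2 were lower (background 3.06%). Of the 16, 5 lay in cluster 11, which was not compared with WT. In HT against WT, with 10 clusters, 2 of 116 pairs were higher (background 2.31%) and 5 were lower (background 3.12%), and Mmp7 in clusters 1 and 2 and Mmp20 in cluster 1 were among the 5.

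**Figure D5:**
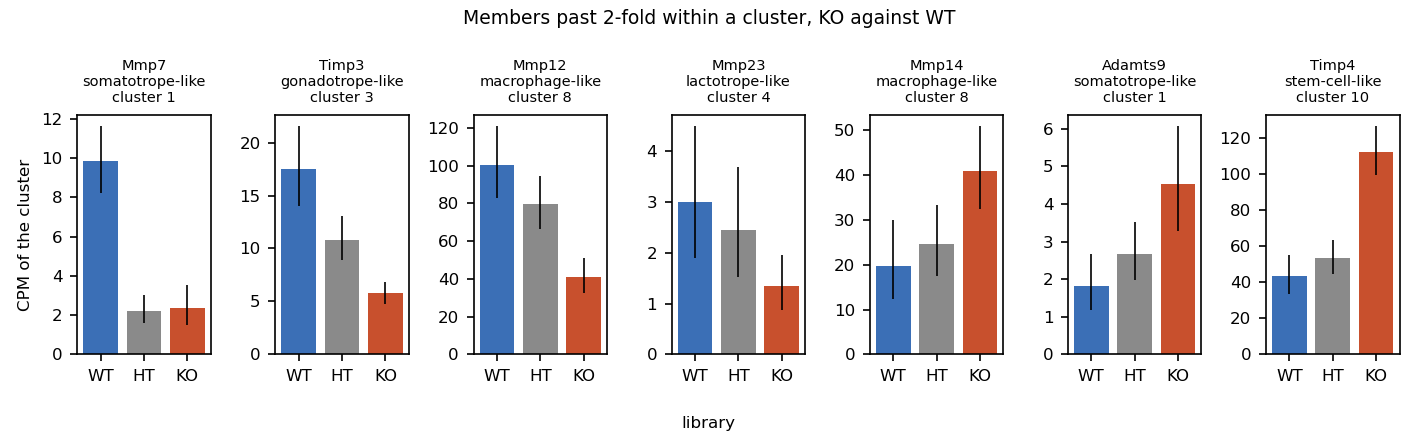
CPM (vertical axis, from 0) of the 7 members past 2-fold within a cluster whose WT and KO counts there added up to 50 or more, in each library (horizontal axis), with exact Poisson 95% intervals. HT lies between WT and KO in all but Mmp7, where HT is as low as KO.

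Timp4 in stem-cell-like cells was 2.6-fold that of WT in KO (1.97 to 3.47), from 64 and 274 counts. The summed level of the 8 stem cell markers in that cluster was 4763, 4781 and 4334 CPM in WT, HT and KO, so it was not higher in KO as Timp4 was. Somatotrope markers in the same cells summed to 38993, 37172 and 21970 CPM, and their part was not tested. Mmp14 in macrophage-like cells was 2.07-fold higher in KO (1.27 to 3.48). Mmp12 in the same cells was 2.46-fold higher in WT (1.83 to 3.33). Adamts9 stood at 1.81, 2.66 and 4.52 CPM in somatotrope-like cluster 1, 2.50-fold higher in KO (1.5 to 4.27). The other higher pairs rested on fewer than 30 counts: Adamts13 and Timp4 in cluster 0, Mmp23 in cluster 1, Adamts5 in cluster 4 and Mmp17 in cluster 9.

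Timp3 in gonadotrope-like cluster 3 stood at 17.5 CPM (14 to 21.5), 10.8 CPM (8.90 to 13.1) and 5.75 CPM (4.78 to 6.87) in WT, HT and KO, in 10.7%, 9.52% and 4.99% of cells. It was 3.04-fold higher in WT than in KO (2.28 to 4.03), while over all cells Timp3 was higher in KO. Some marker lists of other cell types moved with it and others did not. The 8 stem cell markers summed to 28.0, 19.7 and 9.96 CPM in that cluster and the 7 endothelial markers to 24.6, 23.5 and 17.7 CPM, while the 6 fibroblast markers summed to 9.14, 4.12 and 5.89 CPM. The 6 pituicyte markers were highest in KO, at 21.3, 20.9 and 33.2 CPM. So were the 6 pericyte markers, at 0.99, 1.91 and 2.01 CPM. No stem cell marker was at 0 in any of the 3 libraries. The part of such transcripts in the Timp3 values was not tested.

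Mmp7 in cluster 1 was 4.16-fold higher in WT than in KO (2.66 to 6.78). Among the pairs with few counts, Timp3 in macrophage-like cluster 8 had 14 and 10 counts in WT and KO, and Mmp15 in lactotrope-like cluster 4 had 19 and 22. Mmp23, a membrane-bound MMP, was past 2-fold in 2 clusters with opposite directions.

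Genes that act with these proteases were given by lists. The companion list held activators, other inhibitors, other matrix proteases and receptors. Of its 33 genes with enough counts, 6 were at least 2-fold higher in KO over all cells and 2 were lower, beside the backgrounds of 5.79% and 2.55%. The higher ones included Pcolce, an enhancer of procollagen C-proteinase, at 5.53, 9.38 and 13.5 CPM in WT, HT and KO, Htra1, a secreted serine protease, at 1.13, 1.07 and 2.93 CPM, and Ctsk, the collagen-cleaving cathepsin K, at 0.52, 0.88 and 1.44 CPM. The other 3 were Adam12, Adamtsl1 and Dpp4, each below 1 CPM in every library. A2m, the broad protease inhibitor alpha-2-macroglobulin, stood at 15.5, 14.5 and 7.36 CPM and was lower, as was Adamtsl2 at 3.61, 3.21 and 1.53 CPM. Reck, a membrane inhibitor of MMPs, stood at 6.07, 6.43 and 5.63 CPM, and Furin, which activates several pro-MMPs, at 15.5, 13.3 and 15.1 CPM, both within 2-fold. These last were named after their values were seen, as a direct inhibitor and an activator of MMPs.

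The substrate list was higher in KO far more often. Of its 23 genes with enough counts, 14 were at least 2-fold higher in KO than in WT (60.9%, against 5.79% of all genes) and none was lower (background 2.55%). The median log2 ratio was 1.34. Col4a1 and Col4a2, the type IV collagen chains of basement membranes, stood at 9.15, 13 and 28.0 CPM and at 4.26, 6.31 and 13.9 CPM in WT, HT and KO. Col3a1 of interstitial matrix stood at 1.42, 2.38 and 5.30 CPM, and Sparc at 34.9, 46.2 and 88.6 CPM. All 4 were lowest in WT and highest in KO. These are levels over all cells, and the larger shares of endothelial-like and fibroblast-like cells in KO stand beside them. Their part in these values was not tested.

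The 16 members under 50 counts were Adamts8, Adamts12, Adamts14, Adamts16, Adamts18, Adamts19, Adamts20, Mmp1a, Mmp1b, Mmp3, Mmp9, Mmp10, Mmp13, Mmp21, Mmp25 and Mmp28, with 1 to 48 counts each over the 3 libraries. Mmp9, the gelatinase of neutrophils and other cells, had 13, 9 and 12 counts in WT, HT and KO. Adamts18, singled out after its values were seen, had 21, 9 and 0 counts, and the KO count of 0 allows a level of up to 0.0225 CPM, that of 3 counts. Over all cells, members with so few counts were not compared between libraries. Within clusters, the minimum of 20 counts admitted Adamts18 in melanotrope-like cluster 7, one of the 5 pairs lower in HT than in WT. At least 20 of its 30 counts thus lay in cluster 7, which held no KO cell. The part of this in the KO count of 0 was not tested.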

How the data were processed

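Single cells of whole pituitary were measured in 3 libraries, 1 per genotype. Per the file headers, the authors deposited raw counts that were sums per genotype and cluster, in 61 columns. Other deposited quantities were how many cells had a count, gene by gene, and the cluster of every barcode. The deposited scaled counts, recorded as signal, were the raw counts times 1 factor per column and served as an alternative. A further 122 columns of means and proportions were not used. Tools and builds named without steps, per the submitters' processing notes, were DESeq2, Seurat 3.1, Cell Ranger 5, GRCm38 and mm10. Whether reads were collapsed to molecules is not given in the sources used here, so intervals may be too narrow.

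Entries of 1 symbol were added together (110 such additions). CPM, exact Poisson, Clopper-Pearson and conditional binomial intervals (95%) were computed with Python 3.11.15, numpy 2.4.6, pandas 2.3.3 and scipy 1.17.1, and plotted with matplotlib 3.10.9. The call rule was tried on simulated Poisson counts, which held no variation between mice or cells and no clusters. That trial cannot show how the rule behaves under such variation. A count of 0 was set to 3 counts in ratios. Levels were ranked in clusters with at least 50 cells. All members with at least 50 counts were named, companions when past 2-fold. Doublets were not treated beyond the authors' steps. Coordinates came from the count table and were identical to GENCODE M21 for all 46 members. Of the members, 32 matched a RefSeq window. Members, lists and rules were chosen with earlier results of these data known.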

Additional observations from a re-analysis of the deposited data

Results flagged for a closer look

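Mmp23 differed in opposite directions in a pair of clusters. In somatotrope-like cluster 1 its KO level exceeded that of WT, at a ratio of 2.70 (1.19 to 6.50) from 10 WT and 19 KO counts. In lactotrope-like cluster 4 it was lower in KO, with a ratio of 0.447 (0.247 to 0.816) from 23 and 27 counts. HT stood at 0.60 CPM in cluster 1, near the WT level of 0.72, and at 2.44 CPM in cluster 4, near the WT level of 2.99. With 1 library per genotype the difference between the clusters was not tested.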

How the results depend on the processing

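No paired analysis was possible because WT, HT and KO had 1 library each, and no library could be left out. The 6 members higher in KO became 2 with WT cell shares by cluster or by class (the latter chosen after seeing the data) and 12 with no filter above 1 count. The 3 lower members became 1 with the authors' scaled counts, with WT cell shares by cluster or against HT, and 6 with no filter. The median log2 ratio turned to -0.0152 with WT cell shares by class. The 8 higher pairs became 3 at a minimum of 50 counts and 16 against HT (where 97 pairs in 9 clusters, in place of 80 in 7, were compared), and the 6 lower pairs 11 in clusters of at least 50 cells and 2 against HT. Except against HT, the share of all genes under these settings is not given here. Whether the members moved more than all genes did therefore cannot be read from these counts.

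The MMP ratio was 0.807 with totals that left out hormone and mitochondrial genes, 1.07 with scaled counts, 0.914 without clusters under 20 cells, 0.942 and 0.803 with WT shares by cluster and class, and 1.13 against HT. In the same order, without the last, the ADAMTS ratio was 1.09, 0.927, 0.845, 0.923 and 0.927. The TIMP ratio was 1.08, 1.27, 0.728, 0.981, 0.948 and, against HT, 0.957, and 1.19 per cell. Thus the direction of each family sum depended on the setting. Among single members, Adamts5 turned to 0.983 and Mmp19 to 1.31 with scaled counts, and Timp1 to 0.871 and 0.856 with WT shares by cluster and class. Of the 30 members' ratios, a further 16 moved with scaled counts and 18 moved without clusters under 20 cells, by more than the counting interval. The cause of the changes with scaled counts was not tested. Leaving out clusters under 20 cells removes cluster 2 and keeps the KO cells of cluster 5, which by construction unbalances the somatotrope-like cells. Depth limits members near 50 counts.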
